A study of Homo sapiens with 12 samples.

Results

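The transcripts of 36 genes of the synapse were examined across the 12 samples of the study. The genes were listed by name and fall into 4 classes by the place of their products: 20 genes of the presynaptic vesicle and its release machinery, 5 of the active zone, 5 of trans-synaptic adhesion and 6 of the postsynaptic scaffold. All 36 were among the 58302 Ensembl genes counted in the files, and 33 were among the 13454 genes that averaged 20 counts or more per sample and were tested. SYN2, SYN3 and SV2B did not reach this level. The average was over raw counts, so the deepest samples, those of WT-D28 cells described below, weighed most in it. SV2C had 82 and 79 counts there and at most 29 in any other sample, and CPLX1 101 and 93 against at most 36. Both would have missed the level without the WT-D28 samples. The filter therefore favoured genes high in these cells. The cells were derived from H1, a human ESC line, in 6 groups of 2 samples each. WT and dKO NPCs at passage 2 were neural progenitors kept as neural spheres, WT-D28 and dKO-D28 cells came from such progenitors after 28 days without FGF2 and EGF, in a medium with GDNF, BDNF and cAMP, and WT and dKO NPCs at passage 4 were later spheres. The dKO cells carry a deletion of the catalytic part of the JmjC domain in both H3K27me3 demethylases, JMJD3 (KDM6B) and UTX (KDM6A), and come from a single targeted H1-dKO line. The labels name the genotype, passage 4 and day 28, whereas passage 2 was taken from the study's methods.

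At a chemical synapse, vesicles filled with transmitter dock at a protein-rich patch of the presynaptic membrane, the active zone. SNARE proteins on the vesicle and on the plasma membrane zip together, complexins clamp and prime them, and synaptotagmins sense the calcium that triggers fusion. Neurexins on the axon bind neuroligins on the dendrite, and behind the neuroligins the DLG, SHANK and HOMER scaffolds hold receptors in the postsynaptic density. Many of these genes are switched on as a progenitor becomes a neuron, and many carry an RE1 element, the DNA sequence bound by the repressor REST, which keeps neuronal genes off in other cells.

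Levels are given as CPM, each gene's count relative to the TMM-scaled total of its library, in samples 1 and 2. Totals ran from 756942 to 10601172 counts, and the passage 2 NPCs had the lowest, so that 3 counts correspond to between 2.09 and 3.86 CPM there and to less than 1 CPM in the other samples. The labels do not say whether the 2 samples of a group were separate cultures, so the spread between them may be technical. The main fit pooled this spread over all groups, and the p-values do not rest on the spread of the compared groups alone. The 2 dKO-D28 samples stood apart from each other, more than those of any other group relative to counting error. Of the 33 tested synaptic genes, 11 were more than 2-fold higher in replicate 1 than in replicate 2, against 4.33% of all tested genes. Standard errors and p-values for dKO-D28 cells therefore borrow from the tighter spread of the other groups and may be too small. KDM6A and KDM6B were still counted in dKO cells, and these counts cover the whole gene, not the deleted part alone. At passage 2 KDM6A stood at 60.4 and 53.6 CPM in WT NPCs against 39.2 and 38.3 CPM with the deletion, and KDM6B at 154 and 181 CPM against 152 and 157 CPM. KDM6B was higher in dKO than in WT NPCs at passage 4 by 1.52-fold (edgeR adjusted p = 0.00022) and lower in dKO-D28 than in WT-D28 cells by 1.32-fold (edgeR adjusted p = 0.00387), and KDM6A was lower at passage 4 by 1.75-fold (edgeR adjusted p = 0.00691), all short of the 2-fold call used below. Summed over 12 neuron markers, the level was 4996 and 5011 CPM in WT-D28 and 1544 and 724 CPM in dKO-D28 cells. The 6 neural crest markers summed to 135 and 338 CPM in the 2 dKO-D28 samples and to 109 and 111 CPM in WT-D28 cells. In WT NPCs at passage 4 the sum was 240 and 302 CPM. SOX9 alone gave 112 and 223 CPM of the dKO-D28 sums. Among the neuron markers MAPT was at or near 0 in all samples, and so was NSF, an ATPase of membrane fusion that every cell uses. The reason was not tested.

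**Figure D1:**
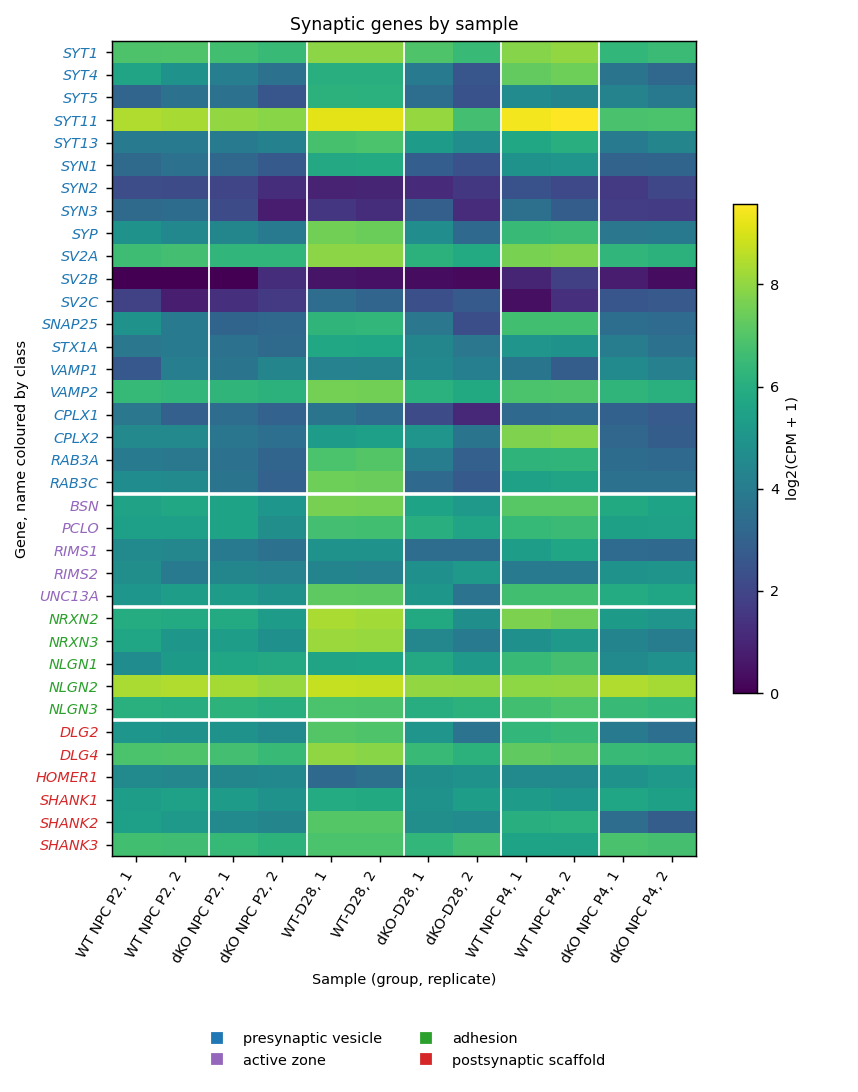
Level of each of the 36 synaptic genes (rows, coloured by class) in each of the 12 samples (columns), as log2 of CPM plus 1. The WT-D28 and WT passage 4 columns are the brightest for most vesicle genes, SYT11 and NLGN2 are high throughout, and SYN2, SYN3 and SV2B are dark throughout.

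Most of these transcripts were already counted in the NPC samples before differentiation. These were bulk samples, and the neuron markers summed to 1783 and 1559 CPM in WT NPCs at passage 2. Which cells held the synaptic transcripts was not resolved. Per kilobase of the canonical transcript, the scale on which genes can be compared, NLGN2, a neuroligin best known from inhibitory synapses, led in WT NPCs at passage 2 with 67.4 ± 2.13 CPM per kb (SD, n = 2). SYT11, a synaptotagmin that does not bind calcium, followed with 64.1 ± 3.82 CPM per kb, and the vesicle SNARE VAMP2 with 38.7 ± 0.939 CPM per kb. NLGN2 and SYT11 differed by less than the spread between replicates, whereas VAMP2 lay below both. The same 3 genes led in dKO NPCs at passage 2, with 58.7 ± 6.25, 47.7 ± 2.80 and 34.8 ± 1.95 CPM per kb. In WT-D28 cells SYT11 came first with 113 ± 0.373 CPM per kb, VAMP2 and NLGN2 followed, and RAB3A and SYP came next with 81.3 ± 4.97 and 73.4 ± 3.30 CPM per kb. In dKO-D28 cells the leaders by mean were again NLGN2, SYT11 and VAMP2, with 51.5 ± 0.549, 35.7 ± 22.2 and 29.3 ± 4.57 CPM per kb. SYT11 had 51.4 and 19.96 CPM per kb in the 2 samples. Its order against NLGN2, VAMP2 and SYT1, the last at 22.2 ± 5.22 CPM per kb, was therefore not resolved.

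To learn which synaptic genes changed when WT progenitors differentiated, WT-D28 cells were compared with WT NPCs at passage 2. Of the 33 genes tested, 20 were higher and 1 was lower by the study's own thresholds, a change of more than 2-fold with p below 0.05 before adjustment. Among all genes tested, 12.9% were higher and 11.5% lower by the same rule. The median log2 fold change of the 33 genes was 1.27, against 0.04 for all genes. By class, 12 of 17 tested vesicle genes, 3 of 5 active zone genes, 2 of 5 adhesion genes and 3 of 6 scaffold genes were higher, with medians of 1.91, 1.31, 0.85 and 0.72. These were bulk samples, in which fewer cells of a type and less RNA per cell cannot be told apart. Most neuron markers moved the same way, with 7 of 10 tested higher and a median of 1.41. NEFL and NEFM went the other way and were not called. NEFL went from 117 and 124 to 62.9 and 59.7 CPM, and NEFM from 149 and 134 to 63.0 and 63.6 CPM. Of other markers, 5 of 6 tested for astrocytes and 3 of 3 for neuroendocrine cells were higher, with medians of 2.46 and 3.01. The summed neuron markers in WT NPCs at passage 2 were 1783 and 1559 CPM. The part of these cell types in the result was not tested.

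The largest rises were in genes of the vesicle. RAB3A (ENSG00000105649; chr19:18196784-18204042), the main GTPase of synaptic vesicles, had 14.1 and 13.2 CPM in WT NPCs and 116 and 127 CPM in WT-D28 cells (log2 fold change 3.16, SE 0.30, edgeR adjusted p = 9.08e-07). Its relative RAB3C (ENSG00000152932; chr5:58582221-58859394) had 24.4 and 22.8 CPM and then 178 and 168 CPM (log2 fold change 2.88, SE 0.20, edgeR adjusted p = 1.33e-08). In both genes each WT-D28 sample lay far above each NPC sample. SYP (ENSG00000102003; chrX:49187815-49200218), which encodes synaptophysin, an abundant membrane protein of the vesicle, had 29.6 and 21.3 CPM and then 183 and 172 CPM (log2 fold change 2.85, SE 0.38, edgeR adjusted p = 0.000227). SYN1 (ENSG00000008056; chrX:47571901-47619857), whose product tethers vesicles in the reserve pool, had 9.003 and 11.01 CPM and then 54.6 and 57.5 CPM (log2 fold change 2.45, SE 0.24, edgeR adjusted p = 7.39e-07). SV2A, a vesicle glycoprotein and the target of the antiepileptic levetiracetam, was also higher, with a log2 fold change of 1.27. SV2C was higher too, but from only 3 counts in WT NPCs against 161 in WT-D28 cells, a ratio of 6.19 (95% exact interval 2.08 to 30.3, for counting error only).

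Among the 5 synaptotagmins, 3 were higher. SYT13, which lacks calcium-binding residues, had 14.1 and 13.95 CPM in WT NPCs and 109.7 and 116 CPM in WT-D28 cells (log2 fold change 3.0, SE 0.25, edgeR adjusted p = 1.31e-07). SYT5 had 7.72 and 11.01 CPM and then 70.6 and 69.1 CPM (log2 fold change 2.83, SE 0.36, edgeR adjusted p = 1.54e-05). SYT1, the calcium sensor of fast release, was already at 118 and 120.4 CPM in NPCs and reached 241 and 240.3 CPM, a log2 fold change of 1.01 at the edge of the threshold, which became 0.999 without WT NPC replicate 1. SYT4 and SYT11, neither of which senses calcium, had log2 fold changes of 0.79 and 0.82 and did not pass. The target-membrane SNAREs SNAP25 and STX1A and the vesicle SNARE VAMP2 form the core fusion complex together and were all higher, by 3.93-fold, 3.75-fold and 2.31-fold. VAMP1, the other synaptobrevin, and the complexins CPLX1 and CPLX2 did not pass, with log2 fold changes of 0.62, 0.22 and 0.83.

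In the active zone, UNC13A, the Munc13 protein that primes vesicles, had 32.2 and 38.9 CPM in WT NPCs and 148 and 142 CPM in WT-D28 cells (log2 fold change 2.00, SE 0.39, edgeR adjusted p = 0.00258). The giant scaffolds BSN and PCLO were higher by 1.96 and 1.31 on the log2 scale. RIMS1 and RIMS2, which link calcium channels to vesicles, did not pass, with log2 fold changes of 0.39 and -0.04. Of the adhesion genes both neurexins were higher. The neuroligins NLGN1, NLGN2 and NLGN3 had log2 fold changes of 0.62, 0.32 and 0.85, each with an unadjusted p below 0.05 but a change below 2-fold. NRXN3 (ENSG00000021645; chr14:78170373-79868291) had 48.9 and 32.3 CPM and then 281 and 274 CPM (log2 fold change 2.83, SE 0.21, edgeR adjusted p = 5.05e-08), and NRXN2 had 60.4 and 56.5 CPM and then 325 and 305 CPM (log2 fold change 2.44, SE 0.31, edgeR adjusted p = 0.000162).

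The postsynaptic scaffold was split. DLG2 (PSD-93), SHANK2 and DLG4 (PSD-95) were higher, by 2.05, 1.81 and 1.02 on the log2 scale, though DLG4 fell short without WT-D28 replicate 1 (0.95) or WT NPC replicate 1 (0.99), and SHANK1 and SHANK3 did not pass. HOMER1 (ENSG00000152413; chr5:79372636-79514134), which bridges SHANK proteins and metabotropic glutamate receptors, was the single lower gene. It had 23.2 and 20.6 CPM in WT NPCs and 8.63 and 10.6 CPM in WT-D28 cells (log2 fold change -1.16, SE 0.24, edgeR adjusted p = 0.00098), and it fell short of 2-fold once GC content and gene length were corrected for (-0.91) and when all samples were thinned to the lowest total (-0.85). The counts cover the whole gene and do not separate its short and long forms.

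The same 28 days were then examined in dKO cells, comparing dKO-D28 cells with dKO NPCs at passage 2. Only 1 of the 33 genes was higher and 1 was lower, while 4.01% of all tested genes were higher and 3.14% lower. The median log2 fold change of the 33 genes was -0.07. SYP had 19.97 and 14.6 CPM in dKO NPCs and 25.1 and 8.75 CPM in dKO-D28 cells, SNAP25 had 7.40 and 8.36 CPM and 12.9 and 3.99 CPM, and NRXN3 had 39.2 and 27.2 CPM and 20.8 and 14.1 CPM. For SYP and SNAP25 the dKO-D28 samples lay on both sides of the NPC samples. SV2C was the higher gene, with 46 counts against 5, a ratio of 2.71 (95% exact interval 1.08 to 8.75), and an edgeR adjusted p of 0.163. It lost its call without dKO-D28 replicate 2 or either dKO NPC sample, with log2 fold changes between 1.16 and 1.69. CPLX1, a clamp of the SNARE complex, was the lower one, with 9.61 and 6.97 CPM and then 3.58 and 1.14 CPM (log2 fold change -1.86, SE 0.51, edgeR adjusted p = 0.0278). Without dKO-D28 replicate 1, the sample with the higher synaptic levels, 6 genes were lower instead of 1.

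**Figure D2:**
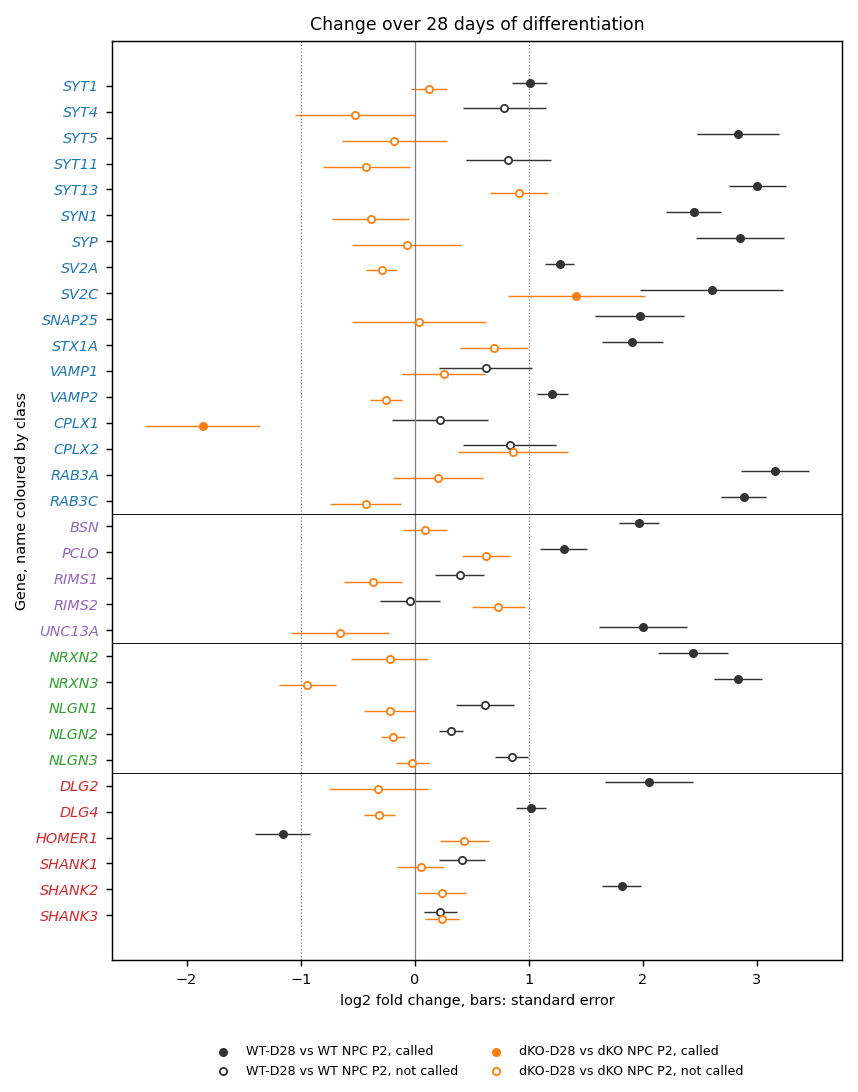
Log2 fold change of the 33 tested genes over 28 days of differentiation, in WT cells (black) and in dKO cells (orange), with the standard error as a bar. Filled points passed the call and the dotted lines mark 2-fold; 20 black points are filled to the right and 1 to the left, whereas the orange points cluster around 0 with 1 filled on each side.

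The difference between the 2 genotypes was tested as an interaction in the same fit, the change in dKO cells minus the change in WT cells. It was negative and passed for 18 of 33 genes and positive for 1, against 11.1% and 12% of all tested genes. Of the 20 genes higher in WT-D28 cells, 17 were among the 18. NRXN3 had the largest difference (log2 fold change -3.77, SE 0.34, edgeR adjusted p = 9.68e-07), followed by RAB3C with -3.31, SYT5 with -3.01, RAB3A with -2.96 and SYP with -2.93. For SYT1, PCLO and SV2C, which were also higher in WT-D28 cells, the difference was -0.88, -0.68 and -1.19 and did not pass. CPLX1 was the eighteenth gene, with -2.08, and HOMER1 was the positive one, with 1.59. Without dKO-D28 replicate 1 the count of negative differences was 22, and without replicate 2 it was 17.

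Next, dKO-D28 cells were compared directly with WT-D28 cells, a comparison that shares the WT-D28 samples with the one above. Here 22 of 33 synaptic genes were lower and 1 was higher, against 11.7% and 12.4% of all tested genes, and the median log2 fold change was -1.67. The lower genes were 14 of 17 in the vesicle class, 3 of 5 in the active zone, 2 of 5 in adhesion and 3 of 6 in the scaffold. Their class medians were -1.93, -1.54, -0.79 and -1.17. The count was 22 without dKO-D28 replicate 2 and 24 without replicate 1, and SYT1 lost its call without replicate 2, at a log2 fold change of -0.98. In the same comparison 8 of 10 tested neuron markers and 5 of 6 astrocyte markers were lower, while the astrocyte marker GJA1 was higher. Higher were also 4 of 5 neural crest markers, 4 of 10 neural progenitor markers and 3 of 7 mesenchymal markers. FABP7 of the progenitor list and COL3A1 of the mesenchymal list were lower. The part of these cell types in the result was not tested.

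RAB3C showed the widest gap, with 178 and 168 CPM in WT-D28 and 8.60 and 5.51 CPM in dKO-D28 cells, a 24.9-fold lower level (log2 fold change -4.64, SE 0.18, edgeR adjusted p = 1.41e-11). NRXN3 followed, with 281 and 274 CPM against 20.8 and 14.1 CPM, 16.1-fold lower (log2 fold change -4.01, SE 0.19, edgeR adjusted p = 2.03e-10). RAB3A was 11.3-fold lower, at 15.5 and 6.65 CPM in dKO-D28 cells (log2 fold change -3.49, SE 0.23, edgeR adjusted p = 1.06e-08). In these genes even the higher dKO-D28 sample stayed far below both WT-D28 samples. SYP, SYN1, SYT5 and SNAP25 were lower by factors of 10.8, 10.7, 9.97 and 9.70. Their adjusted p-values from edgeR lay between 8.34e-10 and 1.02e-05. All 5 synaptotagmins were lower, from -1.21 on the log2 scale for SYT1 to -3.32 for SYT5. In the other classes, NRXN2 was lower by 7.86-fold, UNC13A by 6.74-fold, DLG2 by 6.02-fold and SHANK2 by 5.37-fold.

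HOMER1 ran against this direction. It had 8.63 and 10.6 CPM in WT-D28 and 26.5 and 28.7 CPM in dKO-D28 cells (log2 fold change 1.51, SE 0.17, edgeR adjusted p = 1.96e-06), and the samples of the 2 groups did not overlap. The genes that did not pass were SV2C, VAMP1, CPLX2, PCLO, RIMS2, NLGN1, NLGN2, NLGN3, SHANK1 and SHANK3. NLGN2 and NLGN3 had log2 fold changes of -0.71 and -0.79 with edgeR adjusted p of 1.87e-05 and 3.39e-05, so they missed the call by the size of the change alone.

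Before differentiation, at passage 2, few of these genes passed between the genotypes. None of the 33 was higher in dKO NPCs by the edgeR call and 2 were lower, against 2.59% and 1.84% of all tested genes. DESeq2 also called none higher, and 1 gene, NLGN1, was higher at an unadjusted p below 0.05 in edgeR. RAB3C had 24.4 and 22.8 CPM in WT NPCs and 11.8 and 6.97 CPM in dKO NPCs (log2 fold change -1.32, SE 0.31, edgeR adjusted p = 0.03). SYT4, an intracellular synaptotagmin, had 47.6 and 29.4 CPM and 16.3 and 11.1 CPM (log2 fold change -1.43, SE 0.52, edgeR adjusted p = 0.215), which is not past an adjusted threshold. The samples of the genotypes did not overlap in either gene, but SYT4 lost its call without WT NPC replicate 1 (log2 fold change -1.10) or dKO NPC replicate 2 (-1.17), and RAB3C without dKO NPC replicate 2 (-0.98). These were the shallowest samples. The median log2 fold change of the 33 genes was -0.31, and 27 of them had a negative value. The mesenchymal markers moved in this comparison, with 6 of 7 tested higher in dKO NPCs. Their summed level was 270.1 and 690.3 CPM in WT NPCs and 1523 and 1942 CPM in dKO NPCs, and its part in the synaptic values was not tested.

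At passage 4 the genotypes were far apart. In dKO NPCs 19 of the 33 genes were lower and 4 were higher than in WT NPCs, against 11.2% and 11.1% of all tested genes, with a median of -1.41. The lower genes comprised 12 of 17 vesicle, 3 of 5 active zone, 2 of 5 adhesion and 2 of 6 scaffold genes, and the class medians were -1.78, -1.02, -0.82 and -0.17. CPLX2 (ENSG00000145920; chr5:175796310-175884021), the complexin of forebrain excitatory neurons, had 210.0 and 226 CPM in WT NPCs and 7.85 and 6.04 CPM in dKO NPCs, 31.2-fold lower (log2 fold change -4.96, SE 0.35, edgeR adjusted p = 1.1e-06). SYT4 had 155 and 176 CPM and 12 and 8.46 CPM (log2 fold change -4.01, SE 0.34, edgeR adjusted p = 5.41e-06). Both genes were more than 10-fold apart with close replicates. SNAP25 had 102 and 101 CPM and 9.92 and 9.18 CPM (log2 fold change -3.40, SE 0.34, edgeR adjusted p = 1.1e-05). SHANK2 had 65.2 and 68.8 CPM and 9.69 and 6.04 CPM (log2 fold change -3.08, SE 0.18, edgeR adjusted p = 1.48e-09). RAB3A, DLG2 and SYP were lower by factors of 8.20, 7.02 and 6.92.

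The 4 genes that were higher in dKO NPCs at passage 4 came from 3 classes. SHANK3 (ENSG00000251322; chr22:50674415-50733212), the scaffold gene deleted in Phelan-McDermid syndrome, had 46.4 and 44.3 CPM in WT NPCs and 114 and 106 CPM in dKO NPCs (log2 fold change 1.28, SE 0.14, edgeR adjusted p = 1.69e-06). SV2C had 7 counts in WT and 43 in dKO NPCs, a ratio of 5.07 (95% exact interval 2.26 to 13.4). VAMP1 had 12.2 and 6.07 CPM and 22.6 and 17.2 CPM, and RIMS2 14.2 and 14.7 CPM and 28.2 and 29.96 CPM. VAMP1 and RIMS2 had log2 fold changes of 1.16 and 1.01, just past 2-fold. RIMS2 lost its call without WT replicate 1 (0.98) or dKO replicate 2 (0.96), and VAMP1 without WT replicate 2 (0.71) or dKO replicate 1 (0.95). PCLO and STX1A, among the lower genes, lost theirs without WT replicate 2 (-0.97) and dKO replicate 2 (-0.91). The summed neuron markers were 5337 and 5935 CPM in WT NPCs and 1297 and 1305 CPM in dKO NPCs at passage 4, with 8 of 10 tested genes lower and NEFM higher. The summed mesenchymal markers were 235 and 252 CPM and 1933 and 1919 CPM, and the 8 astrocyte markers 2082 and 2288 CPM and 628 and 674 CPM. Most of the dKO astrocyte sums came from GJA1, which supplied 595 and 633 CPM there but only 92.2 and 86.3 CPM of the WT sums. GJA1 was higher with the deletion, whereas 5 of the 6 tested astrocyte markers were lower. The part of these cell types in the synaptic values was not tested.

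**Figure D3:**
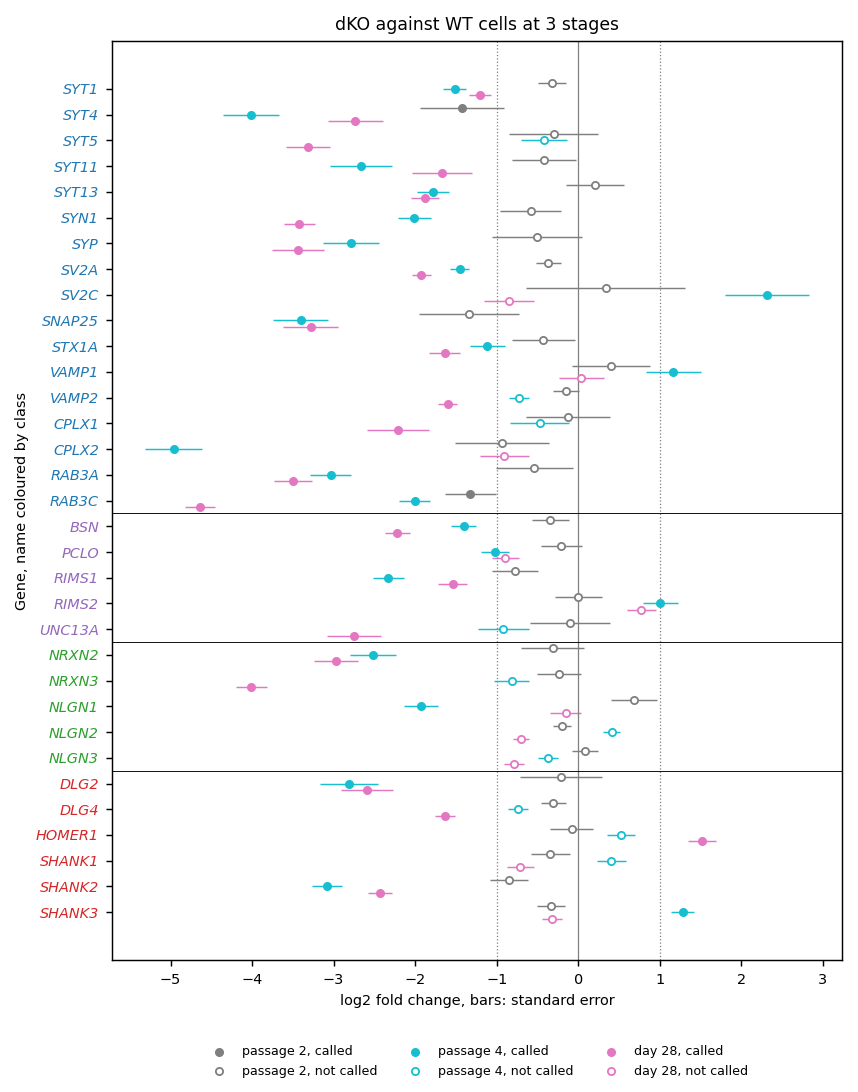
Log2 fold change of dKO against WT cells for the 33 tested genes at passage 2 (grey), passage 4 (cyan) and day 28 (pink), with the standard error as a bar; filled points passed the call and the dotted lines mark 2-fold. Grey points lie between -1.43 and 0.69 with 2 filled, whereas 19 cyan and 22 pink points are filled on the left, HOMER1 is filled on the right at day 28, and SV2C, VAMP1, RIMS2 and SHANK3 are filled on the right at passage 4.

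The comparisons at passage 4 and at day 28 share no samples, and 16 genes were lower in both, 84.2% of the 19 at passage 4 and 72.7% of the 22 at day 28. Of all tested genes 846 were lower in both, 56.2% of those lower at passage 4 and 53.7% of those lower at day 28. The 16 were 9 of the vesicle class outside the RAB3 family, both RAB3 genes, BSN, RIMS1, NRXN2, DLG2 and SHANK2. CPLX2, PCLO and NLGN1 passed the call at passage 4 and not at day 28, and SYT5, VAMP2, CPLX1, UNC13A, NRXN3 and DLG4 passed at day 28 and not at passage 4, but the difference between the stages was not tested. Several of them fell just short of 2-fold at the other stage, with log2 fold changes of -0.89 for PCLO at day 28 and of -0.92, -0.73 and -0.74 for UNC13A, VAMP2 and DLG4 at passage 4, each with an edgeR adjusted p below 0.05. For NRXN3 the log2 fold change was -0.82 at passage 4 and -4.01 at day 28, and for CPLX2 it was -4.96 and -0.91. The WT levels of the 2 genes differed between the stages: NRXN3 had 26.99 and 34.2 CPM in WT NPCs at passage 4 against 281 and 274 CPM at day 28, and CPLX2 had 210.0 and 226 CPM against 37.2 and 41.04 CPM. NLGN2, NLGN3 and SHANK1 passed the call in none of the 9 comparisons made by edgeR, and each of them had an unadjusted p below 0.05 in several.

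Passage itself was compared within each genotype. From passage 2 to passage 4, 19 of 33 synaptic genes were higher and 1 was lower in WT NPCs, against 10.3% and 9.49% of all tested genes, and the median was 1.07. CPLX2 went from 21.9 and 22.03 CPM to 210.0 and 226 CPM (log2 fold change 3.31, SE 0.37, edgeR adjusted p = 7.05e-05), RAB3A from 14.1 and 13.2 CPM to 73.4 and 75.9 CPM (log2 fold change 2.46, SE 0.31, edgeR adjusted p = 2.71e-05) and SNAP25 from 29.6 and 13.95 CPM to 102 and 101 CPM (log2 fold change 2.34, SE 0.39, edgeR adjusted p = 0.000875). All 5 synaptotagmins were higher, although SYT11 was not at an adjusted p below 0.05. Leaving out 1 sample ended 3 of these calls, with the log2 fold change without it in parentheses: SYT5 without WT NPC replicate 1 (0.97) or 2 (1.48) or passage 4 replicate 1 (1.01), SYT11 without WT NPC replicate 1 (1.19) or 2 (1.07) or passage 4 replicate 2 (1.05), and SYT1 without passage 4 replicate 2 (0.94). SV2A lost its call without WT NPC replicate 1 (0.97) or passage 4 replicate 2 (0.99), and RIMS1 did so without WT NPC replicate 2 (0.96) or passage 4 replicate 2 (0.89). SHANK3 was the lower gene, from 100.3 and 98.4 CPM to 46.4 and 44.3 CPM (log2 fold change -1.13, SE 0.16, edgeR adjusted p = 4.78e-05). In the adhesion class NLGN1, a neuroligin of excitatory synapses, was higher by 1.60 on the log2 scale and NRXN2 by 1.72, whereas NRXN3 had -0.34 and did not pass. In this comparison 7 of 10 tested neuron markers and 5 of 6 tested astrocyte markers were higher, with medians of 1.86 and 3.29, and their part in the result was not tested.

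In dKO NPCs 2 genes were higher and 4 lower with passage, against 4.61% and 5.22% of all tested genes. SYT5 and SV2C were higher with log2 fold changes of 1.03 and 1.49, and SHANK2, SYT11, DLG2 and NLGN1 were lower with -1.39, -1.11, -1.09 and -1.01. Of the 6, only SHANK2 and NLGN1 had an edgeR adjusted p below 0.05, of 0.000849 and 0.00774. NLGN1 lost its call without dKO NPC replicate 2 (-0.94) or passage 4 replicate 1 (-0.88). SYT11 and DLG2 lost theirs whichever of these samples was left out (-1.05 to -1.17 and -0.87 to -1.31). SYT5 did so without dKO NPC replicate 2 (0.54) or passage 4 replicate 1 (0.80). For SV2C it was without dKO NPC replicate 1 (1.27) or 2 (1.76) or passage 4 replicate 2 (1.42). SNAP25 had 7.40 and 8.36 CPM and 9.92 and 9.18 CPM at passages 2 and 4, and SYN1 had 8.14 and 5.57 CPM and 7.38 and 7.49 CPM. The interaction, the knockout effect at passage 4 minus that at passage 2, was negative and passed for 16 of 33 genes and positive for 2, against 9.57% and 9.72% of all tested genes. CPLX2 had the largest difference (log2 fold change -4.03, SE 0.74, edgeR adjusted p = 0.00318), and NLGN1, DLG2 and SYT4 followed with -2.61, -2.60 and -2.58. The positive ones were SHANK3 with 1.61 and RIMS2 with 1.01, the latter at an edgeR adjusted p of 0.0624.

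The groups with the most synaptic transcripts, WT-D28 cells and WT NPCs at passage 4, were compared with each other in a contrast chosen after seeing the data. In WT-D28 cells 6 of 33 genes were higher and 3 lower, against 8.29% and 7.38% of all tested genes. NRXN3, a presynaptic adhesion receptor, had 26.99 and 34.2 CPM at passage 4 and 281 and 274 CPM at day 28 (log2 fold change 3.17, SE 0.18, edgeR adjusted p = 3.02e-09), and RAB3C had 44.1 and 47.1 CPM and 178 and 168 CPM (log2 fold change 1.92, SE 0.15, edgeR adjusted p = 5.17e-08). SV2C, SYT5, SHANK3 and VAMP1 were the other higher genes. CPLX2 was lower, with 210.0 and 226 CPM and then 37.2 and 41.04 CPM (log2 fold change -2.48, SE 0.27, edgeR adjusted p = 4.5e-05), and so were SYT4 (-1.39) and HOMER1 (-1.21). The transmitter transporter genes also differed in level: SLC17A7 had 69.8 and 68.1 CPM at passage 4 and 0.118 and 0.297 CPM at day 28, whereas SLC32A1 had 6.25 and 5.06 CPM and 80.996 and 79.3 CPM. The 8 astrocyte markers summed to 2082 and 2288 CPM at passage 4 and 532 and 521 CPM at day 28, and their part was not tested.

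Close relatives within a family differed in level and in direction. SYN1 was the main synapsin in WT-D28 cells, with 17.5 ± 0.630 CPM per kb against 0.292 ± 0.00964 for SYN2 and 0.208 ± 0.0453 for SYN3. SYN2 and SYN3 had between 1 and 32 counts in any sample and SV2B at most 10, so no direction was read for them. SV2A was the main SV2 gene in every group, at 55.1 ± 0.169 CPM per kb in WT-D28 cells, while SV2C stayed below 1 CPM per kb. VAMP2 exceeded VAMP1 in every group, with 88.9 ± 1.23 against 6.69 ± 0.171 CPM per kb in WT-D28 and 29.3 ± 4.57 against 6.90 ± 1.11 CPM per kb in dKO-D28 cells. The complexins changed places: in WT NPCs at passage 4 CPLX2 had 47.4 ± 2.42 and CPLX1 4.18 ± 0.185 CPM per kb, whereas in dKO NPCs at passage 4 they had 1.51 ± 0.278 and 3.01 ± 0.376 CPM per kb. Among the SHANK scaffolds, SHANK2 and SHANK3 stood at 6.19 ± 0.239 and 6.32 ± 0.209 CPM per kb in WT NPCs at passage 4, which does not differ beyond the spread between replicates. In dKO NPCs at passage 4 they stood at 0.726 ± 0.238 and 15.3 ± 0.806 CPM per kb.

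**Figure D4:**
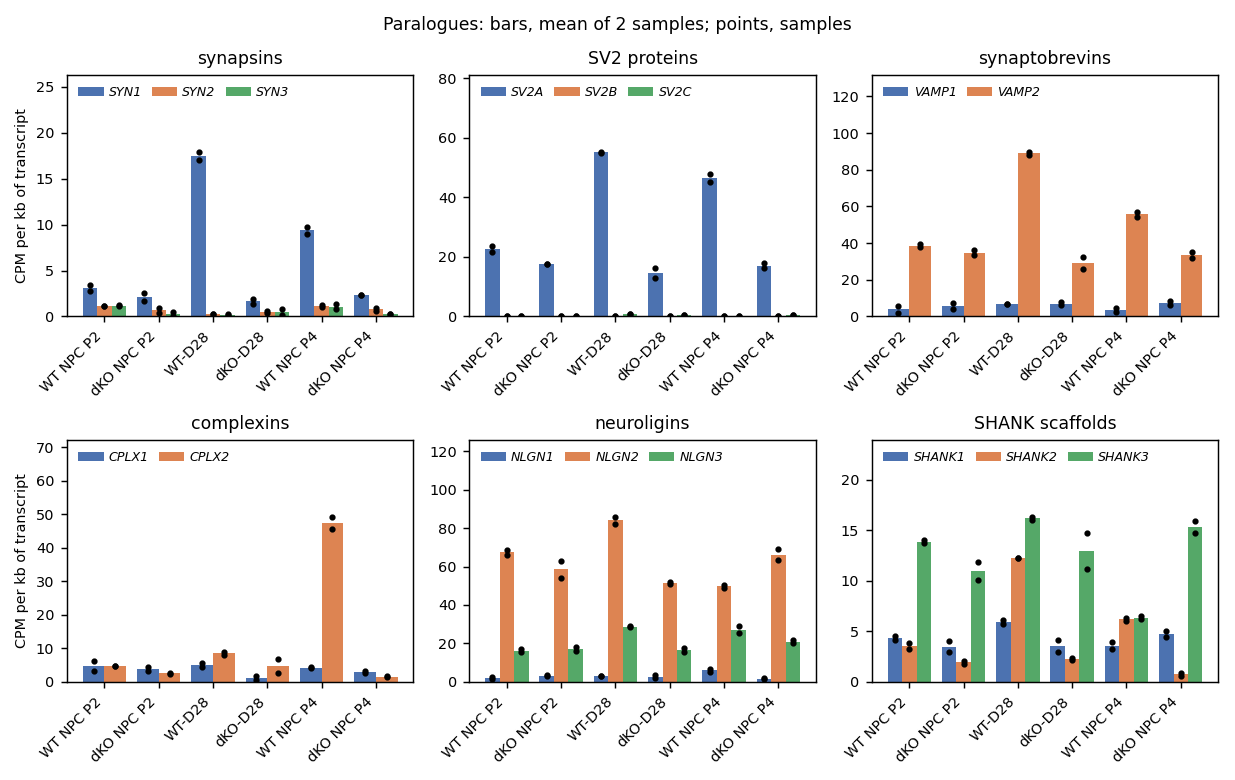
Level of related synaptic genes in each group, in CPM per kilobase of the canonical transcript, with bars for the mean of 2 samples and points for the samples. One gene stands out in most families (SYN1, SV2A, VAMP2, NLGN2), while CPLX2 is prominent in WT NPCs at passage 4 alone, where SHANK3 has its lowest bar.

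REST, which represses neuronal genes in progenitors, was measured in the same samples. It had 82.3 and 96.2 CPM in WT NPCs and 82.8 and 91.3 CPM in dKO NPCs at passage 2, 17.5 and 17.5 CPM in WT-D28 and 101 and 121 CPM in dKO-D28 cells, and 33.6 and 53.9 CPM in WT NPCs and 93.5 and 105 CPM in dKO NPCs at passage 4. The lower REST levels were in WT-D28 cells and WT NPCs at passage 4, the groups in which most synaptic genes were highest. REST was lower in WT-D28 cells than in WT NPCs (log2 fold change -2.36, SE 0.20, edgeR adjusted p = 1.73e-07) and higher in dKO-D28 than in WT-D28 cells (log2 fold change 2.67, SE 0.18, edgeR adjusted p = 3.94e-09). Whether REST had a part in the synaptic values was not tested.

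**Figure D5:**
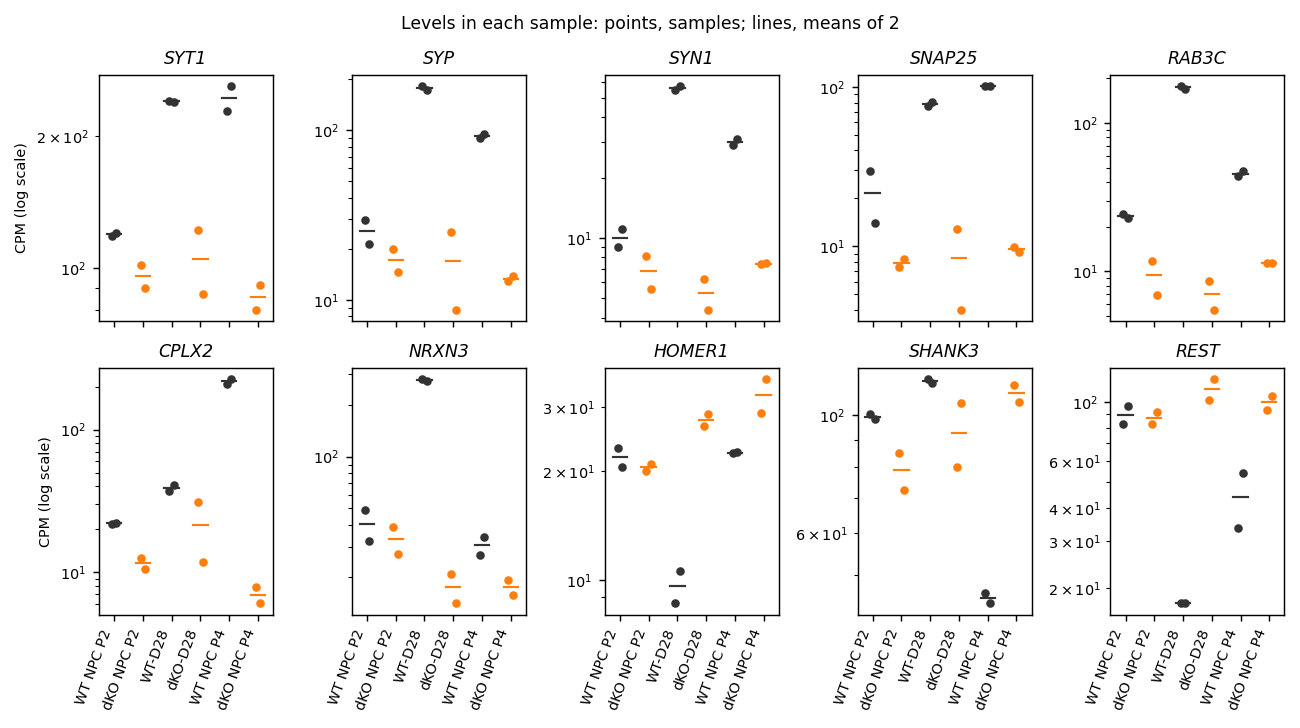
CPM (log axis, scaled per panel) of 9 synaptic genes and of REST in the 6 groups, with points for samples and lines for the mean of 2. WT cells are black and dKO cells orange. SYP, SYN1 and SNAP25 are high in WT-D28 cells and WT NPCs at passage 4, and CPLX2 peaks in WT NPCs at passage 4. RAB3C and NRXN3 peak in WT-D28 cells, and HOMER1 and REST are lowest in WT-D28 cells.

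The RE1 element, the site that REST binds, was searched near the start of each gene. The 21-base RE1 consensus was searched on both strands within 5 kb either side of the start of each canonical transcript, with up to 2 mismatches in the 18 fixed positions. Of the 36 synaptic genes, 6 (16.7%) held a match, and so did 152 (1.13%) of 13394 tested genes. The 6 matches are shown 5′ to 3′ with letters that fit the fixed positions of the consensus in capitals, read from hg38.
SYN1, chrX:47620070-47620090, minus strand, centre 223 bases before the start: TTCAGCACCgcGGACAGtGCC
SYP, chrX:49200122-49200142, minus strand, centre 61 bases after the start, in an intron: TcCAGCACCgtGGACAGaGCC
SYT5, chr19:55180200-55180220, minus strand, centre 79 bases after the start, in a noncoding exon: aTCAGCACCcgGGACAGcGCC
SYT4, chr18:43277293-43277313, minus strand, centre 187 bases after the start, in a noncoding exon: TTCAGCACCtcGGACAGaaCa
CPLX2, chr5:175871888-175871908, minus strand, centre 320 bases after the start, in an intron: TTCAGCACCacGGAgAGcGCa
SNAP25, chr20:10219672-10219692, plus strand, centre 852 bases after the start, in an intron: TTCAGCACCggGGACAGcGgt

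These 6 genes are all of the vesicle and release class, and they include CPLX2, the one of the 33 with the largest rise with passage in WT NPCs. The 6 were higher in WT NPCs at passage 4 than at passage 2, with a median log2 fold change of 2.04, and SYT5 lost its call without either WT NPC sample or passage 4 replicate 1 (log2 fold changes of 0.97 to 1.48). Of the 27 tested genes without a match 13 were higher, with a median of 0.96, against 10.3% of all tested genes. These 27 come from all classes. Among the 17 tested vesicle genes, which include the 6, 12 were higher with passage, with a median of 1.13. In WT-D28 cells against WT NPCs at passage 2, 4 of the 6 and 16 of the 27 were higher, with medians of 2.211 and 1.205. Of all tested genes 12.9% were higher there, and of the 17 vesicle genes 12, with a median of 1.91. In dKO against WT NPCs at passage 4 the medians of the 6 and the 27 were -3.10 and -1.02, and at day 28 they were -3.30 and -1.64. The 17 vesicle genes had medians of -1.78 at passage 4 and -1.93 at day 28. These medians are descriptions without a test. RAB3C, NRXN3 and RAB3A, with the largest differences at day 28, held no match in these windows. SYN1 was the one gene with all fixed letters in place. An exact match lay in 3 of 35116 RefSeq promoter windows (0.00854%), and 28 of the 36 genes had such a window. The SYN1 promoter (GRCh38.p14, RefSeq; chrX:47619858-47620107, minus strand, the 250 bases before the start) is shown with the matching letters in capitals, from 233 to 213 bases before the start.
SYN1 promoter: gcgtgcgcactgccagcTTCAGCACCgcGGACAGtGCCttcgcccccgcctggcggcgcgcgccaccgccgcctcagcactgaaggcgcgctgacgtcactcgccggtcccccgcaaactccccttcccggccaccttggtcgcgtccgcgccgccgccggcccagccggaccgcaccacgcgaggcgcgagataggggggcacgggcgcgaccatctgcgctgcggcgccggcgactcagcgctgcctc

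A wider list of 100 other synaptic genes of the same classes, 87 of them tested, was read beside the 36. In WT-D28 against WT NPCs 39 were higher and 9 lower, in dKO-D28 against WT-D28 cells 41 were lower and 6 higher, and in dKO against WT NPCs at passage 4 35 were lower and 8 higher. The shares of all tested genes were 12.9% and 11.5%, 11.7% and 12.4%, and 11.2% and 11.1% in the same order. The medians were 0.68, -0.95 and -0.71. The calcium/calmodulin kinase gene CAMK2B had 7.72 and 2.94 CPM in WT NPCs and 70.6 and 75.2 CPM in WT-D28 cells, and CAMK2A had 103 and 101 CPM in WT-D28 and 5.97 and 4.94 CPM in dKO-D28 cells. The adhesion gene LRRTM3, which encodes a postsynaptic ligand of neurexins, had 1.29 and 0.734 CPM in WT NPCs, 20.3 and 18.2 CPM in WT-D28 and 1.19 and 0 CPM in dKO-D28 cells. SYT12 was at 0 in both WT NPC samples at passage 2 and at 16.9 and 14.97 CPM in WT-D28 cells.

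The genes for vesicular transmitter transporters, which decide what a vesicle holds, went different ways. SLC32A1, the transporter for GABA and glycine, had 80.996 and 79.3 CPM in WT-D28 and 1.67 and 0.190 CPM in dKO-D28 cells. The glutamate transporter gene SLC17A6 had 7.72 and 7.34 CPM in WT NPCs, 0.236 and 0.198 CPM in WT-D28 and 8.60 and 1.71 CPM in dKO-D28 cells. Its relative SLC17A7 had 0.118 and 0.297 CPM in WT-D28 and 7.40 and 1.33 CPM in dKO-D28 cells, and 69.8 and 68.1 CPM in WT against 2.77 and 1.69 CPM in dKO NPCs at passage 4. The 2 dKO-D28 samples differed several-fold in both glutamate transporter genes. Among genes lower in WT-D28 cells than in WT NPCs or higher in dKO cells were SYT10, with 0.591 and 1.29 CPM in WT-D28 and 21.7 and 13.5 CPM in dKO-D28 cells, and CNTNAP2, whose 5.14 and 77.8 CPM in WT NPCs rest on replicate 2. At passage 4 RIMBP2, an active zone linker, had 6.58 and 5.06 CPM in WT NPCs and 54.9 and 62.8 CPM in dKO NPCs, SLITRK1 had 19.1 and 25.8 CPM and 90.9 and 95.7 CPM, and LRRTM2 had 65.2 and 80.97 CPM and 0.923 and 1.45 CPM.

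Some of these genes share exon sequence with a neighbour, and the kit does not mark strand, so their reads cannot be told apart there. SYN1 shares 25.1% of its exon bases with other genes, mainly ARAF on the opposite strand, VAMP2 shares 11.9%, VAMP1 10.4% with TAPBPL, and RAB3A 9.24% with MPV17L2. The other listed genes share at most 2.69%.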

How the data were processed

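RNA was sequenced from 12 samples in 6 groups of 2, with a kit that does not mark strand. The authors deposited raw read counts per Ensembl gene for each sample. Per the labels' processing notes and the study's methods, reads were aligned to hg38 with HISAT2 (2.0.4) and counted with SAMtools (1.3.1) and HTSeq (0.6.0), and the study tested with DESeq (1.18.1). The annotation release and the strand setting of the counting are not given in the sources used here. Of 58302 gene IDs, 57532 (98.7%) were found in GENCODE release 44, which gave symbols, positions and lengths.

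Genes averaging 20 counts or more were kept, scaled by TMM and fitted with edgeR (4.0.16, R 4.3.3, limma 3.58.1) by its robust quasi-likelihood test, with 1 mean for each of the 6 groups. Calls used the study's thresholds, a change of more than 2-fold with p below 0.05 before adjustment, and Benjamini-Hochberg adjusted p-values over all 13454 genes are given beside. With 2 samples against 2, an exact two-sided permutation test cannot go below 0.3333, so single-gene permutation was not used. Totals of 756942 to 10601172 counts set the precision, and floors of 3 counts and intervals cover counting error only, since the reads carried no molecular identifiers. CPM per kb divides by the canonical transcript's length.

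Alternatives were DESeq2 (1.42.0) with its size factors, upper-quartile scaling, adjusted p-values, only the samples compared, and at least 1 count in any or 10 in every sample. Others were correcting for GC content and for gene length in 10 bins with a pseudocount of 0.1, and a replicate block. The last were thinning to 756942 counts and leaving out each sample. The study corrected for GC content and gene length with EDASeq, for which the binned correction stands in.

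The genes and lists were chosen with earlier results of these data known. Every listed gene was counted in each comparison. Named with values were at least the 4 called genes with the largest change in WT-D28 against WT NPCs, dKO-D28 against WT-D28 and dKO against WT NPCs at passage 4, those called against the majority of their class, KDM6A, KDM6B and REST, and from the wider synaptic list the 3 largest in each direction. RE1 matches were read from hg38 and the promoter from RefSeq (GRCh38.p14).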

Additional observations from a re-analysis of the deposited data

Results flagged for a closer look

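The change over 28 days differed between the genotypes, by the interaction in the edgeR fit, in 19 of the 33 synaptic genes. The values are the log2 change in dKO cells minus that in WT cells. In the vesicle class the difference was -3.01 for SYT5, -2.09 for SYT13, -2.83 for SYN1, -2.93 for SYP and -1.56 for SV2A. Among SNARE, complexin and RAB3 genes it was -1.94 for SNAP25, -1.21 for STX1A, -1.45 for VAMP2, -2.08 for CPLX1, -2.96 for RAB3A and -3.31 for RAB3C. In the other classes it was -1.87 for BSN, -2.65 for UNC13A, -2.66 for NRXN2, -3.77 for NRXN3, -2.37 for DLG2, -1.33 for DLG4, 1.59 for HOMER1 and -1.57 for SHANK2. SNAP25 was not past an adjusted p of 0.05 (edgeR adjusted p = 0.0777) and lost its call without WT NPC replicate 2 (log2 difference -1.38) or dKO NPC replicate 1 (-2.02) or 2 (-1.84), and STX1A lost its call without dKO-D28 replicate 2 (-0.91) or dKO NPC replicate 1 (-1.06).

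The effect of the knockout differed between passage 4 and passage 2 in 18 of the 33 genes by the corresponding interaction. In the vesicle class it was -1.19 for SYT1, -2.58 for SYT4, -2.24 for SYT11, -1.99 for SYT13, -1.43 for SYN1, -2.28 for SYP, -1.09 for SV2A, -2.06 for SNAP25, -4.03 for CPLX2 and -2.50 for RAB3A. In the other classes it was -1.06 for BSN, -1.55 for RIMS1, 1.01 for RIMS2, -2.20 for NRXN2, -2.61 for NLGN1, -2.60 for DLG2, -2.23 for SHANK2 and 1.61 for SHANK3. SNAP25 (edgeR adjusted p = 0.0753) and RIMS2 (edgeR adjusted p = 0.0624) were not past an adjusted p of 0.05. SNAP25 lost its call without WT NPC replicate 2 (-1.502) or dKO NPC replicate 1 (-2.15) or 2 (-1.97), and SYN1 without dKO NPC replicate 1 (-1.14). BSN lost it without WT NPC replicate 1 (-0.99), dKO NPC replicate 1 (-0.77) or dKO passage 4 replicate 2 (-0.93). RIMS2 lost it without WT NPC replicate 1 (0.64), dKO NPC replicate 2 (0.94), WT passage 4 replicate 1 (0.98) or dKO passage 4 replicate 2 (0.97).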

How the results depend on the processing

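Of 134 single-gene calls, 115 were tested under every alternative, of which 91 passed under all of them, and 19 were not tested with at least 10 counts in every sample, of which 12 passed under the others. None reversed. The call was lost for 4 under DESeq2, 6 under upper-quartile scaling, 10 with adjusted p-values, 9 after the correction for GC content and gene length, 11 after thinning and 4 with only the samples compared. Limits come from the shallow passage 2 samples, from 2 samples a group and from dKO-D28 replicate 2. The cause of the changes below was not tested.

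Counts over the 33 synaptic genes moved as follows, starting from 1 lower gene in WT-D28 against WT NPCs: 3 with at least 1 count in any sample, and 0 after the GC and length correction, with or without the replicate block, and after thinning. In dKO-D28 against dKO NPCs the 1 higher gene became 0 under DESeq2, adjusted p-values, only the samples compared or at least 10 counts in every sample, and 2 after thinning, and the 1 lower gene became 0 with at least 10 counts and 2 after the correction, with or without the block, or thinning. In dKO-D28 against WT-D28 the 1 higher gene became 2 with at least 1 count. In dKO against WT NPCs at passage 2 the 2 lower genes became 1 with adjusted p-values, 4 with at least 1 count and 5 after thinning, and at passage 4 the 4 higher genes became 1 with at least 10 counts. With passage in dKO NPCs the 2 higher genes became 1 under DESeq2, the correction, the block with it or thinning, and 0 with adjusted p-values or at least 10 counts, and the 4 lower became 2 under upper-quartile scaling, adjusted p-values or the correction. In differentiation by genotype the 1 positive gene became 2 with at least 1 count, and in passage by genotype the 2 positive became 1 with adjusted p-values, at least 1 count, at least 10 counts or thinning.

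Leaving out 1 sample at a time, the higher and lower counts ran from 19 to 21 and 1 to 1 in WT-D28 against WT NPCs, 1 to 2 and 1 to 6 in dKO-D28 against dKO NPCs, 1 to 1 and 22 to 24 in dKO-D28 against WT-D28, 0 to 2 and 0 to 3 at passage 2, 3 to 3 and 18 to 20 at passage 4, 15 to 19 and 1 to 1 with passage in WT NPCs, 0 to 1 and 2 to 2 with passage in dKO NPCs, 1 to 2 and 16 to 22 in differentiation by genotype, and 1 to 3 and 13 to 17 in passage by genotype. The 6 lower genes were without dKO-D28 replicate 1, the 2 higher without dKO-D28 replicate 2, and the 0 lower at passage 2 without dKO NPC replicate 2. A group left with 1 sample is assumed to vary like the others.

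Samples with the same replicate number deviated together little (mean correlation 0.0176, -0.0582 to 0.194 over 15 pairs of groups). The highest value was between WT and dKO NPCs at passage 4. Whether samples of the same number were handled together was not tested. A replicate block lost no call and gave 3 rather than 2 lower genes at passage 2.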
